A study of Mus musculus with 48 samples.

Results

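The comparison described here is of livers in which MYC was switched on together with mutant beta-catenin (BM, Ctnnb1ex3/+; R26-LSL-MYC) against livers with mutant beta-catenin alone (B, Ctnnb1ex3/+), 4 days after induction. It takes in 12 of the 48 libraries of the series, from 3 B mice and 3 BM mice, each with 1 library of ribosome-protected fragments (RPF, the mRNA pieces that a ribosome shields from nuclease) and 1 of cytoplasmic RNA. The animals were male, aged 2 to 4 months, and all had received an adeno-associated virus that carries Cre under the TBG promoter, which is active in hepatocytes. Controls and test mice thus shared the virus, Cre and the mutant Ctnnb1 allele and differed by the MYC transgene. Wild-type (WT) and R26-LSL-MYC (M) mice of day 4, 3 of each and given the same virus, were used to ask where the effect of MYC differed without mutant beta-catenin, and for a check of Glul, a plot of levels and an alternative fit. Whole liver was ground, so a lower level can come from fewer cells of a type or from less RNA per cell, and these cannot be told apart.

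MYC is a transcription factor that binds, with its partner MAX, to E-box DNA (letters CACGTG), and it is known for raising ribosome production, nucleotide synthesis and entry into the cell cycle. Beta-catenin is the effector of Wnt signalling. In liver it sets the gene programme of hepatocytes around the central vein (zone 3), whereas urea and glucose production are concentrated around the portal vein (zone 1). Exon 3 of Ctnnb1 codes for the residues that mark beta-catenin for destruction, and its loss leaves the protein stable. RNA level tells how much message is present, RPF how much ribosome sits on it, and their ratio, the translation efficiency (TE), how densely each message is occupied.

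Levels are CPM (counts relative to the scaled library total), with libraries scaled by the trimmed mean of M values (TMM) within each library type. Changes are fitted log2 values of BM over B with their standard error, from edgeR's quasi-likelihood test with 3 mice a side, and a gene is said to rise or fall where the adjusted p was under 0.1. The RPF libraries held 11851629 to 12666018 counts in B and 12820973 to 13888368 in BM. The RNA libraries held 5009967 to 5791540 and 4811466 to 5411080. The 50 most abundant RNAs of the B mice took 34.0% to 40.7% of RNA counts in B and 23.8% to 25.1% in BM. Without TMM scaling the median of all genes moved to 0.34 (RNA) and 0.31 (RPF) on the log2 scale, and the changes below are relative to the TMM scale.

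The alleles could be checked in part. Gene positions are those of GRCm39. Ctnnb1 (ENSMUSG00000006932, chromosome 9, 120757422 to 120789579) had an RPF level of 328, 385 and 379 CPM in the B mice and 368, 362 and 357 CPM in the BM mice (log2 change 0.03 ± 0.08, adjusted p = 0.84), and counts per gene do not show the lost exon. Glul, glutamine synthetase and a classical zone 3 target of beta-catenin, had an RPF level of 816, 825 and 791 CPM in WT, 2944, 3853 and 4449.9 in B, 675, 789 and 570.1 in M and 3529, 4117 and 4039.8 in BM. Both genotypes with the mutant allele lay above both without it, and B and BM overlapped. Footprints on Myc (ENSMUSG00000022346, chromosome 15, 61857227 to 61862223) were 18.9, 11.5 and 33.8 CPM in the B mice and 43.0, 57.9 and 54.4 CPM in the BM mice, with no overlap (log2 change 1.30 ± 0.29, adjusted p = 0.0066). Its RNA was 27.4, 25.9 and 45.8 CPM in the B mice and 19.2, 28.4 and 21.9 CPM in the BM mice (log2 change -0.50 ± 0.21, adjusted p = 0.0892; not called without B mouse 3, BM mouse 1 or BM mouse 3, at -0.47 to -0.21). How reads of the transgene were assigned is not given in the sources used here, so these values may mix both sources of Myc. TE of Myc was also called higher (log2 change 1.80 ± 0.42, adjusted p = 0.0734; not called without B mouse 1, BM mouse 1, BM mouse 2 or BM mouse 3, at 1.74 to 1.90).

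Hepatocyte markers were abundant: the 10 hepatocyte markers summed to 95980 to 115100 RNA CPM in B and 58650 to 67740 in BM. Markers of other liver cells were at far lower levels. Of 13 Kupffer cell and macrophage markers, 10 fell in RNA, with sums of 292 to 338 CPM in B and 178 to 210 in BM. Of 12 sinusoidal endothelial markers 10 fell (508 to 547 against 368 to 403 CPM), and of 10 stellate cell and fibroblast markers tested 5 fell (427 to 461 against 254 to 318 CPM). All 5 blood cell markers tested fell (391 to 757 against 211 to 292 CPM). Of 6 cholangiocyte markers tested in each readout, 1 fell in RNA and 4 in RPF. Among all genes 16.0% were lower in RNA and 20.8% in RPF. Of 13 lymphocyte markers none passed the filter in RNA. Of 9 neutrophil markers only Cxcr2, a chemokine receptor, was tested in RNA, and it rose (1.19 ± 0.21). The sum of the neutrophil markers was 7 to 9 CPM in B and 14 to 22 in BM, and Ngp and Camp had no RNA count in any of the 6 mice. The part of these cells in the results was not tested.

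A large share of the genes differed between BM and B. In RNA, 2103 genes rose and 1786 fell of 11196 tested (34.7% called). In RPF, 2716 rose and 2364 fell of 11373 (44.7%). TE changed for far fewer genes, with 115 higher and 7 lower of 10533 (1.16%; 691 genes had an unadjusted p under 0.05). With library totals in place of TMM the RNA calls split into 5552 higher and 594 lower, and the RPF calls into 5630 and 812. Joining the RPF and RNA library of a mouse as a block raised the TE calls to 358 higher and 135 lower. Leaving out a single mouse took the TE total from 122 to between 33 (without B mouse 3) and 117, and it was 43 without B mouse 1, 69 without B mouse 2 and 73 without BM mouse 3.

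RNA and footprints mostly moved together. Of 10533 genes tested in both, 1673 rose and 1397 fell in both, 941 rose and 809 fell in RPF alone, and 335 rose and 330 fell in RNA alone. The 7 genes called in opposite directions were Hamp2, Inhbc, Myc, Mycl, Serpina3c, Serpina3f and Syvn1, and each of them lost at least 1 of its RNA and RPF calls when a single mouse was left out. The RPF change of Inhbc was 0.08 with library totals. Among genes called with a change of more than 2-fold, higher outnumbered lower in RPF (653 against 275), RNA (451 against 263) and TE (82 against 2).

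**Figure D1:**
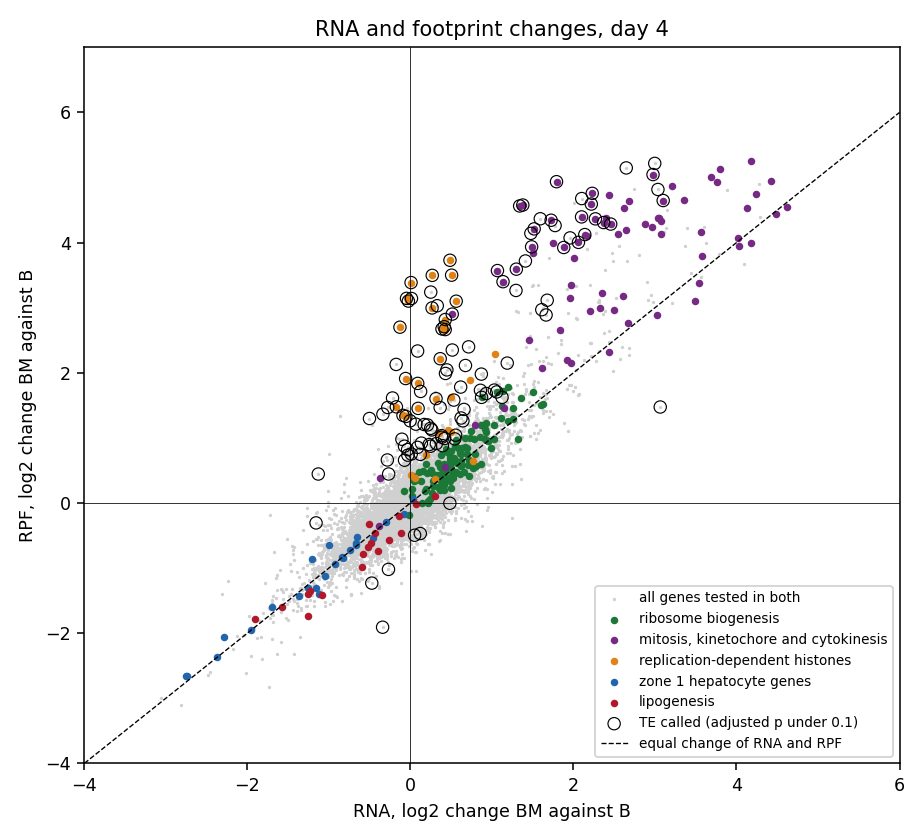
Log2 change of RNA (horizontal) and RPF (vertical) in BM against B for each gene tested in both, without genes at 3 counts or fewer in every B mouse. Coloured points are 5 gene lists, open circles genes whose TE was called and the dashed line equal change. Ribosome biogenesis genes lie along the line above 0, zone 1 and lipogenesis genes along it below 0, and histones stand well above it.

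Genes that make ribosomes rose as a group. In the nucleolus, RNA polymerase I copies ribosomal RNA, and a large set of processing factors trims and folds it onto ribosomal proteins. Of 115 ribosome biogenesis genes 102 rose in RPF and none fell, against 23.9% higher among all genes, and in RNA 82 of 114 rose, against 18.8%. Their median log2 change was 0.59 in RPF and 0.53 in RNA, beside 0.00 and 0.01 over all genes. RPF on Ncl, nucleolin (ENSMUSG00000026234, chromosome 1, 86272441 to 86287208), was 224, 234 and 200.4 CPM in the B mice and 748, 638 and 576 CPM in the BM mice (log2 change 1.61 ± 0.11, adjusted p = 7.96e-06). RNA of Ncl was 204, 210.2 and 197 CPM in the B mice and 578, 519 and 471 CPM in the BM mice (log2 change 1.36 ± 0.09, adjusted p = 1.74e-06). Every BM mouse stood at more than 2 times the highest B mouse in both readouts.

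The snoRNP proteins, which guide the chemical marking of ribosomal RNA, held the highest RPF changes of the list together with Npm1. Nop56, a core protein of box C/D particles, had an RPF level of 25.6, 24.5 and 21.0 CPM in the B mice and 88.7, 69.8 and 68.3 CPM in the BM mice (log2 change 1.70 ± 0.12, adjusted p = 9.62e-06). For Dkc1, the pseudouridine synthase of box H/ACA particles, the RPF level was 23.1, 23.2 and 22.4 CPM in the B mice and 82.9, 70.5 and 66.0 CPM in the BM mice (log2 change 1.71 ± 0.10, adjusted p = 3.55e-06), and its TE was also higher (log2 change 0.65 ± 0.14, adjusted p = 0.044; not called without B mouse 1, B mouse 2, B mouse 3 or BM mouse 2, at 0.61 to 0.71). Its partner Nhp2 rose by 1.73 ± 0.12 in RPF and 1.13 ± 0.10 in RNA. Npm1, nucleophosmin, a histone chaperone of the nucleolus, rose by 1.78 ± 0.13 in RPF, and Mybbp1a, a nucleolar MYB-binding protein, by 1.26 ± 0.09. In all 5 genes the lowest BM mouse lay above the highest B mouse, as in 24.7% of all genes tested in RPF.

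Because the E-box is the DNA element of MYC, promoter windows of RefSeq (GRCm38.p6, 250 bases before to 50 after the start) were searched for CACGTG, which reads the same on both strands. Of 96 ribosome biogenesis genes with a window 20 held it (20.8%), against 8.09% of all 27025 genes with a window, 11.6% of those tested in RNA, 12.6% of those that rose in RNA and 10.1% of those that fell. Cytosolic ribosomal protein genes held it in 6 of 64 and mitosis genes in 4 of 66. The share was higher in 7 other lists, which were called in different directions in RNA. More members were higher than lower among translation factors, with 11 of 46 (23.9%), and targets of p53, with 7 of 32 (21.9%). In the MYC network, with 5 of 13 (38.5%), as many were higher as lower. More members were lower than higher among urea cycle genes, with 4 of 12 (33.3%), circadian clock genes, with 5 of 16 (31.3%), cholesterol synthesis genes, with 4 of 17 (23.5%), and the IGF and mTOR list, with 7 of 33 (21.2%). A match is a description of letters and no evidence of binding here. The sites of 5 ribosome biogenesis genes that rose in both readouts are shown with the motif in capitals and 12 bases on either side. They are the most abundant such genes with a full flank, a single chromosome being left out of the choice, and show where in the window the letters lie.
Wdr43 (chr17:71616220-71616249, + strand): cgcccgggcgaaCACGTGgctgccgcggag
Pes1 (chr11:3963965-3963994, + strand): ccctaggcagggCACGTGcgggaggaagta
Utp4 (chr8:106893643-106893672, + strand): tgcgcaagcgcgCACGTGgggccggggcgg
Nol11 (chr11:107189407-107189436, - strand): cttgagcgttcgCACGTGgtctagactcca
Tsr1 (chr11:74898092-74898121, + strand): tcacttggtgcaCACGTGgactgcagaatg
The motif began 17, 2, 15 and 24 bases after the start site in Wdr43, Pes1, Utp4 and Tsr1, and upstream of it in Nol11. RPF on Wdr43, a small-subunit processome protein, was 26.1, 27.0 and 20.0 CPM in the B mice and 61.6, 58.8 and 55.7 CPM in the BM mice (log2 change 1.30 ± 0.11, adjusted p = 2.78e-05). Pes1, of the large-subunit PeBoW complex, rose by 0.59 ± 0.09, Utp4 by 0.59 ± 0.08 (in RNA not called without B mouse 2, B mouse 3 or BM mouse 1, at 0.32 to 0.38), Nol11 by 0.61 ± 0.10 and Tsr1 by 1.01 ± 0.13.

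The polymerases that copy ribosomal and transfer RNA rose too. Of 29 subunits and factors of RNA polymerases I and III, 23 rose in RPF and none fell, and in RNA 14 of 28 rose (median 0.56 and 0.34). Polr1b, the second largest subunit of RNA polymerase I, had an RPF level of 26.5, 32.1 and 29.9 CPM in the B mice and 73.3, 70.5 and 64.6 CPM in the BM mice (log2 change 1.27 ± 0.09, adjusted p = 1.06e-05). Footprints on Polr3g, a subunit of RNA polymerase III, were 1.15, 0.719 and 0.815 CPM in the B mice and 4.50, 2.95 and 3.02 CPM in the BM mice and its TE was higher (log2 change 1.56 ± 0.37, adjusted p = 0.0729; not called without B mouse 1, B mouse 2, B mouse 3, BM mouse 2 or BM mouse 3, at 1.45 to 1.75), with an RNA change of 0.43 ± 0.19 that was not called.

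Nearly every cytosolic ribosomal protein gene rose. In RPF 76 of 79 were higher and none lower (median 0.85), and in RNA 79 of 84 (median 0.65). RPF on Rpl3, of the large subunit, was 133, 164 and 145 CPM in the B mice and 378, 450.1 and 359 CPM in the BM mice (log2 change 1.46 ± 0.11, adjusted p = 1.32e-05). RPF on Rps20, of the small subunit, was 20.0, 23.9 and 21.2 CPM in the B mice and 65.8, 80.2 and 58.3 CPM in the BM mice (log2 change 1.68 ± 0.13, adjusted p = 1.25e-05), and Rps20 was 1 of 5 ribosomal protein genes with higher TE (log2 change 0.75 ± 0.16, adjusted p = 0.0561; not called without B mouse 1, B mouse 2, B mouse 3 or BM mouse 1, at 0.72 to 0.78). The largest footprint change of the list was that of Rps12 (1.76 ± 0.17). Ribosomal protein genes have many near-identical pseudogenes, so a member's value is uncertain where the counting split reads among copies.

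Translation factors rose less uniformly, with 38 higher and 3 lower of 56 in RPF and 33 higher and 0 lower of 57 in RNA. Footprints on Eef1g, a subunit of the elongation factor 1 complex, were 66.7, 72.5 and 63.1 CPM in the B mice and 159, 157 and 139 CPM in the BM mice (log2 change 1.20 ± 0.09, adjusted p = 1.06e-05). Its RNA rose by 0.21 ± 0.08 (not called without B mouse 2, B mouse 3, BM mouse 1 or BM mouse 3, at 0.18 to 0.20), and its TE by 0.99 ± 0.11 (adjusted p = 0.00126). Pabpc4, a cytoplasmic poly(A)-binding protein, rose in RPF (1.73 ± 0.12) and TE (0.71 ± 0.17; not called without B mouse 1, B mouse 3, BM mouse 2 or BM mouse 3, at 0.57 to 0.75). The members with fewer footprints were Eif4a2 (-0.52 ± 0.14), Eif1 (-0.39 ± 0.11) and Pdcd4, an inhibitor of the helicase eIF4A (-0.35 ± 0.13; not called without B mouse 1, BM mouse 1 or BM mouse 3, at -0.31 to -0.19), and none of these 3 was called in RNA.

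Among the 22 aminoacyl-tRNA synthetases and their scaffold genes, 18 rose in RPF and 2 fell. RPF on Vars1, the valine enzyme, was 53.9, 68.5 and 60.8 CPM in the B mice and 222, 208 and 202 CPM in the BM mice (log2 change 1.82 ± 0.10, adjusted p = 2.74e-06). The alanine enzyme Aars1 (-0.33 ± 0.09) and the threonine enzyme Tars1 (-0.64 ± 0.10) went the other way, and both were also called lower in RNA (Aars1 -0.29 ± 0.10, not called without B mouse 2, B mouse 3 or BM mouse 1, at -0.28 to -0.22; Tars1 -0.63 ± 0.09). With library totals Aars1 was not called in either readout, at 0.03 in RNA and -0.03 in RPF. Cytosolic chaperonin and mitochondrial chaperone genes had 21 higher and 0 lower of 31 in RPF, among them Hspd1, the mitochondrial HSP60 (0.84 ± 0.09), and Cct5 (0.75 ± 0.08). Mitochondrial ribosomal protein genes had 39 higher and 2 lower of 78 in RPF and 15 higher and 3 lower of 78 in RNA, with a median RPF change of 0.24. Among all genes 23.9% were higher in RPF and 18.8% in RNA, so the RNA count of this list lies near that share.

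In the list of purine, pyrimidine and one-carbon synthesis, 25 genes rose and 5 fell of 40 in RPF. The 3 largest RPF changes were in serine and mitochondrial folate metabolism. Serine synthesis feeds carbon to folate, and from there to purines and thymidylate. Psat1, the second enzyme of serine synthesis, had an RPF level of 1.86, 1.62 and 1.30 CPM in the B mice and 19.3, 19.0 and 15.9 CPM in the BM mice (log2 change 3.53 ± 0.17, adjusted p = 2.74e-06) and an RNA change of 3.44 ± 0.37. Phgdh, the first enzyme of the same path, had another pattern: its RNA was 8.49, 5.89 and 6.66 CPM in the B mice and 6.67, 9.15 and 5.44 CPM in the BM mice (log2 change 0.01 ± 0.24, adjusted p = 0.979), while its footprints were 1.06, 0.719 and 1.38 CPM in the B mice and 9.13, 13.4 and 5.27 CPM in the BM mice (log2 change 3.14 ± 0.39, adjusted p = 0.00022). TE of Phgdh rose by 3.12 ± 0.51 (adjusted p = 0.00837; not called without B mouse 1, at 2.96). Mthfd1l, the mitochondrial formate producer, also had 0.25 ± 0.24 in RNA, not called, and 3.24 ± 0.27 in RPF (TE log2 change 2.98 ± 0.39, adjusted p = 0.00148). Cad, which starts pyrimidine synthesis, rose by 2.15 ± 0.15 and Ctps1, CTP synthase, by 1.94 ± 0.16 in RPF. The members that fell included the hepatocyte methionine-cycle enzymes Mat1a (-0.63 ± 0.11) and Gnmt (-1.09 ± 0.12).

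Polyamine genes were called in both directions. Of 12 tested 6 rose and 3 fell in RPF, beside 23.9% higher and 20.8% lower among all genes. Odc1, the rate-limiting enzyme of synthesis, had an RPF level of 17.6, 17.8 and 17.7 CPM in the B mice and 41.7, 38.6 and 39.1 CPM in the BM mice (log2 change 1.20 ± 0.08, adjusted p = 8.06e-06), and spermidine synthase, Srm, rose by 1.78 ± 0.14. Spermine synthase, Sms, rose by 0.56 ± 0.19 (not called without B mouse 3 or BM mouse 3, at 0.38 to 0.49). Oaz1, the antizyme that targets ODC for degradation (-0.27 ± 0.10; 0.03 with library totals; not called without B mouse 3, BM mouse 2 or BM mouse 3, at -0.26 to -0.18), and Sat1, which acetylates polyamines for export (-0.60 ± 0.11), fell, as did Paox, a polyamine oxidase (-0.35 ± 0.12; -0.05 and not called with library totals; not called without B mouse 3 or BM mouse 3, at -0.25 to -0.23).

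**Figure D2:**
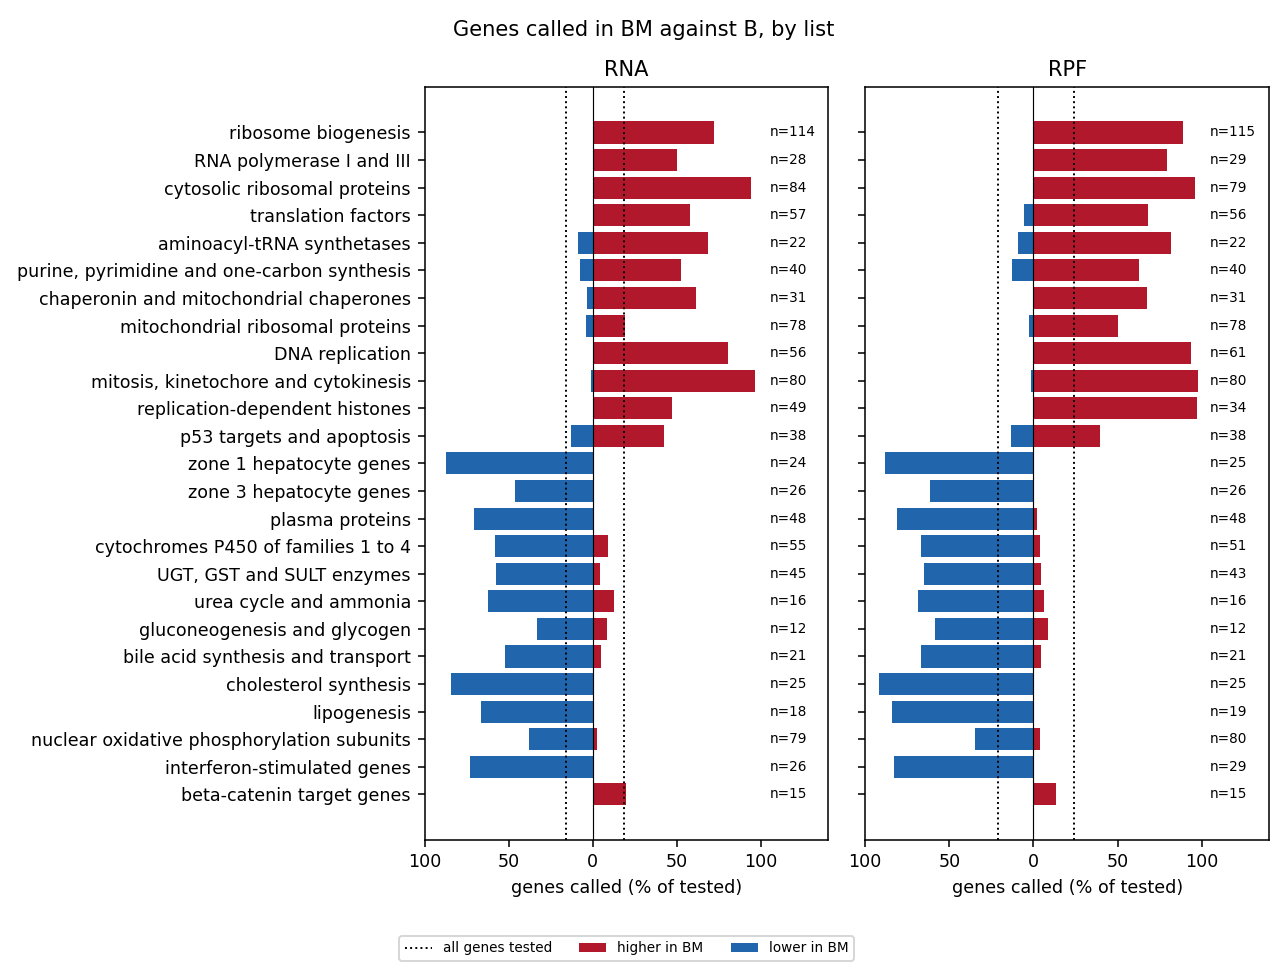
Share of the tested genes of each list that was called higher (red, to the right) or lower (blue, to the left) in BM against B, in RNA and in RPF, with the number tested. Dotted lines mark the share among all genes tested (18.8% higher and 16.0% lower in RNA, 23.9% and 20.8% in RPF). On the TMM scale the lists of ribosome, translation, DNA replication, mitosis and histone genes have more genes to the right, and those of zone 1, zone 3, plasma protein, cytochrome P450 and lipid synthesis genes more to the left, while with library totals gluconeogenesis had 3 genes on either side and oxidative phosphorylation 40 higher and 0 lower in RPF.

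The largest increases in RNA and RPF were in cell cycle genes. Mitosis, kinetochore and cytokinesis genes rose in 78 of 80 cases in RPF and 77 of 80 in RNA, with a median log2 change of 4.12 in RPF and 2.45 in RNA. With the 3 genes at 3 counts or fewer in every B mouse set at their lower bound, the RPF median was 4.11. The 10 genes with the largest RNA increase, Sgo1, Ckap2l, Mki67, Birc5, Parpbp, Knstrn, Dlgap5, Nusap1, Hmmr and Nuf2, and in RPF Cdc25c, Arhgef39, Hmmr, Ccnb2, Aunip, Ccnb1, Cenpf, Cdc20, Cenpe and Cdca7l, include spindle, kinetochore and cyclin genes. RPF on Hmmr, a spindle protein named in both sets, was 0.531, 1.53 and 1.14 CPM in the B mice and 56.0, 31.2 and 32.6 CPM in the BM mice (log2 change 5.25 ± 0.34, adjusted p = 5.69e-06). RPF on Cdc25c, the phosphatase that activates CDK1, was 0.177, 0.180 and 0.0815 CPM in the B mice and 8.24, 6.86 and 7.52 CPM in the BM mice, and since the B level is within 3 counts in each mouse no fitted fold is given. RPF on Mki67, the proliferation marker Ki-67 (ENSMUSG00000031004, chromosome 7, 135291513 to 135318299), was 3.01, 7.91 and 5.21 CPM in the B mice and 151, 89.0 and 101 CPM in the BM mice (log2 change 4.43 ± 0.29, adjusted p = 5.98e-06), and its RNA changed by 4.49 ± 0.21. RPF on Cdk1, the kinase that drives mitosis, was 4.33, 8.0 and 6.11 CPM in the B mice and 109.9, 67.4 and 77.5 CPM in the BM mice (log2 change 3.82 ± 0.23, adjusted p = 4.05e-06). BM mouse 1 was the highest of the 3 in both genes, and the groups were far apart. The only member called lower was Pttg1, securin (-0.35 ± 0.12 in RPF; not called without B mouse 1, B mouse 3 or BM mouse 2, at -0.32 to -0.23).

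DNA replication genes had 57 higher and 0 lower of 61 in RPF and 45 higher and 0 lower of 56 in RNA. RPF on Rrm1, the large subunit of ribonucleotide reductase, was 27.8, 29.9 and 28.4 CPM in the B mice and 138, 90.7 and 90.5 CPM in the BM mice (log2 change 1.92 ± 0.16, adjusted p = 1.83e-05), and Pcna, the sliding clamp, rose by 1.31 ± 0.18. Ticrr and Orc1, which act when origins are licensed and fired, had no footprint in any B mouse and 2.13, 1.09 and 1.35 CPM (Ticrr) and 1.60, 1.09 and 1.54 CPM (Orc1) in the BM mice. The list of G1 cyclins, CDKs and their brakes, which also holds cyclins A and B, Cdk1 and transcription factors of later phases, had 20 higher and 0 lower of 30 in RPF. Ccnd1, cyclin D1, was not called: its RPF level was 22.1, 41.8 and 38.7 CPM in the B mice and 43.6, 42.1 and 48.7 CPM in the BM mice (log2 change 0.42 ± 0.19, adjusted p = 0.111), with overlap between groups.

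Histone genes that are switched on with DNA replication had a larger median change in footprints than in RNA. Of 34 tested in RPF 33 rose and none fell (median 1.90), and in RNA 23 of 49 rose (median 0.31). These medians cover different sets, as only 34 of the 49 passed the filter in RPF. A gene with few footprints in B can pass that filter through BM alone, which favours genes that rose. In TE 22 of 34 rose, against 1.09% of all genes. For H3c3, an H3 gene, RNA was 19.9, 20.8 and 26.9 CPM in the B mice and 29.2, 22.8 and 29.1 CPM in the BM mice (log2 change 0.27 ± 0.14, adjusted p = 0.195) and RPF 0.796, 1.26 and 0.326 CPM in the B mice and 12.9, 5.58 and 7.58 CPM in the BM mice (log2 change 3.50 ± 0.44, adjusted p = 0.000218). Replication-dependent histone mRNAs have no poly(A) tail, and histone genes share much of their sequence. The RNA libraries were depleted of rRNA and not selected by poly(A), per the study's methods. How reads were split among histone copies was not tested.

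Higher TE was called for many histone and mitosis genes. Of the 115, 22 were histones and 21 were in the mitosis list, while 5 were in the one-carbon and nucleotide list and 5 were ribosomal proteins. By the calls of the same genes, 71 rose in both RNA and RPF, 41 in RPF alone, and 2 had lower RNA with higher RPF. Plk1, polo-like kinase 1 (ENSMUSG00000030867, chromosome 7, 121758646 to 121769108), had RNA of 7.14, 8.83 and 14.2 CPM in the B mice and 32.3, 19.3 and 24.2 CPM in the BM mice (log2 change 1.34 ± 0.23, adjusted p = 0.000987). Its footprints were 1.41, 2.97 and 2.36 CPM in the B mice and 69.8, 40.0 and 46.9 CPM in the BM mice (log2 change 4.56 ± 0.27, adjusted p = 4.05e-06), and TE rose by 3.22 ± 0.43 (adjusted p = 0.00152). In log2 TE that is -2.31, -1.57 and -2.57 in the B mice and 1.11, 1.05 and 0.95 in the BM mice.

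Top2a is the topoisomerase that untangles chromosomes before they separate. RNA of Top2a was 55.6, 54.6 and 71.8 CPM in the B mice and 211, 134 and 164 CPM in the BM mice and RPF 5.31, 12.1 and 9.86 CPM in the B mice and 176, 109 and 124 CPM in the BM mice, a TE change of 2.45 ± 0.33 (adjusted p = 0.00152). In the B mice the RPF level in CPM was far below the RNA level, and in the BM mice it was close to it. Kif2c, a microtubule depolymerase, changed in TE by 3.14 ± 0.41, Fanci, of the Fanconi repair pathway, by 3.19 ± 0.49, Ccnb1, cyclin B1, by 2.50 ± 0.40 (not called without B mouse 3, at 2.39), and Stmn1, stathmin, by 2.29 ± 0.29. The other genes with the largest TE increase were the histones H2ac10 (not called without B mouse 1 or B mouse 3, at 2.72 to 3.24), H2bc7 (not called without B mouse 1 or B mouse 3, at 2.69 to 3.08), H2bc14, H2bc11, H3c14 and H3c8. Their TE in the B mice rests on few footprint counts.

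Lower TE was called for 7 genes (0.0665% of those tested), described here, and for 135 with the block on mouse. G6pdx, the first enzyme of the pentose phosphate pathway, had RNA of 36.3, 32.0 and 32.7 CPM in the B mice and 22.2, 22.6 and 27.9 CPM in the BM mice and RPF of 26.1, 23.7 and 23.2 CPM in the B mice and 9.48, 10.8 and 10.1 CPM in the BM mice (TE log2 change -0.76 ± 0.17, adjusted p = 0.0553; not called without B mouse 1, B mouse 2, B mouse 3 or BM mouse 3, at -0.76 to -0.63). In Slc23a1, a vitamin C transporter, TE changed by -0.75 ± 0.18. Serpinb8 rose in RNA (3.06 ± 0.20) more than in RPF (1.47 ± 0.16), and Ugt2b38 fell in RPF (-1.91 ± 0.33) more than in RNA (-0.34 ± 0.08). The others were Zfyve26, Pnrc1 and Sec24a, by -0.59 ± 0.13, -0.55 ± 0.12 and -0.49 ± 0.11. The TE calls of Slc23a1, Zfyve26 and Sec24a were lost on leaving out any of the 6 mice, with Slc23a1 at -0.80 to -0.71, Zfyve26 at -0.65 to -0.52 and Sec24a at -0.53 to -0.42. Pnrc1 was not called without B mouse 1, B mouse 2, B mouse 3, BM mouse 2 or BM mouse 3, at -0.58 to -0.50, and Ugt2b38 was not called without BM mouse 2 or BM mouse 3, at -1.56 to -1.37.

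**Figure D3:**
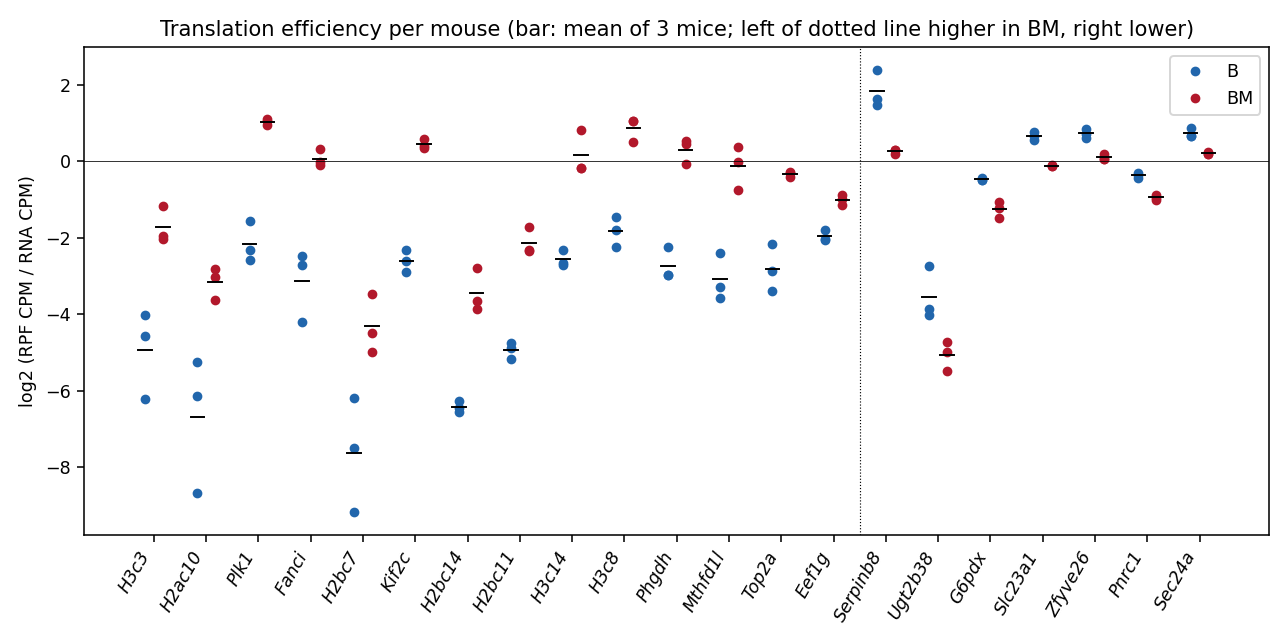
Log2 of RPF over RNA in each of the 3 B mice (blue) and 3 BM mice (red), with the mean as a bar and 0.5 added to each count, for 14 genes with higher TE left of the dotted line and 7 with lower TE right of it. The mice of the 2 genotypes do not overlap in any of these genes, which also holds for all 122 genes called in TE and is no separate result (of all genes tested for TE, 8.56% did not overlap in the higher and 9.89% in the lower direction).

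Periportal (zone 1) hepatocyte genes were lower in BM. In RPF 22 of 25 and in RNA 21 of 24 were lower and none higher, against 20.8% and 16.0% lower among all genes, with medians of -0.94 and -1.03. RPF on Hal, histidine ammonia-lyase, was 659.9, 359.7 and 425 CPM in the B mice and 76.9, 65.7 and 81.6 CPM in the BM mice (log2 change -2.66 ± 0.21, adjusted p = 1.49e-05). RPF on Pck1, the enzyme that commits carbon to gluconeogenesis (ENSMUSG00000027513, chromosome 2, 172994744 to 173001066), was 1265, 871 and 1386 CPM in the B mice and 85.2, 186 and 276 CPM in the BM mice (log2 change -2.65 ± 0.36, adjusted p = 0.000351). RPF on Cyp2f2, a periportal cytochrome P450, was 2223, 1415 and 1634 CPM in the B mice and 496, 311 and 429 CPM in the BM mice (log2 change -2.06 ± 0.20, adjusted p = 4.97e-05). The groups did not overlap in these 3 genes, which was part of how genes with the largest decreases were chosen (50.4% of all genes tested in RPF did not overlap). The largest decreases in either readout also included Aqp8, a water channel (-2.99 ± 0.12 in RPF), Serpina12 (-3.11 ± 0.22), Fabp5 (-2.60 ± 0.17), Slc34a2 (-2.64 ± 0.22), Etnppl (-2.37 ± 0.28), Mup6, Mup17, Foxq1, BC024139 and Nr4a1 (-2.62 ± 0.51).

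Zone 3, or pericentral, genes had 0 higher and 16 lower of 26 in RPF and 0 higher and 12 lower of 26 in RNA (RPF median -0.43, RNA median -0.30, the latter 0.03 with library totals, which called 5 higher and 6 lower in RNA). Cyp2e1, the most abundant of them, had an RPF level of 8433, 8972 and 8613 CPM in the B mice and 6485, 9301 and 7223 CPM in the BM mice (log2 change -0.15 ± 0.15, adjusted p = 0.466). Of 15 beta-catenin target genes tested 2 rose in RPF and none fell, beside 23.9% higher and 20.8% lower among all genes. Those that rose were Rhbg, an ammonium transporter (0.92 ± 0.20), and Slc1a2, a glutamate transporter (0.65 ± 0.23; not called without B mouse 1, B mouse 2 or BM mouse 2, at 0.49 to 0.58). In RNA Axin2, a feedback inhibitor of Wnt signalling, was also higher (log2 change 0.57 ± 0.23, adjusted p = 0.091; not called without B mouse 1, B mouse 3, BM mouse 1 or BM mouse 2, at 0.40 to 0.55). Lgr5, the R-spondin receptor, and Notum, a Wnt inhibitor, were not called (RPF 0.18 ± 0.15 and -0.11 ± 0.15).

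Genes of glucose and nitrogen metabolism had more members called lower than higher, though for glycolysis and gluconeogenesis this depended on the scaling. Gluconeogenesis and glycogen genes had 1 higher and 7 lower of 12 in RPF, with a median of -0.27 that was 0.03 with library totals (3 higher and 3 lower). G6pc1, which releases glucose, changed by -1.31 ± 0.15 and Fbp1, fructose bisphosphatase, by -1.43 ± 0.18. Urea cycle and ammonia genes had 1 higher and 11 lower of 16. RPF on Cps1, the entry enzyme of the urea cycle, was 5358, 5362 and 5475 CPM in the B mice and 3567, 3509 and 3038 CPM in the BM mice (log2 change -0.65 ± 0.11, adjusted p = 0.00106). Ass1, argininosuccinate synthase, changed by -0.94 ± 0.11 and Gls2, the liver glutaminase, by -1.30 ± 0.19. Glycolysis genes had 3 higher and 11 lower of 29, and the median of that list, -0.12, was 0.18 with library totals, which called 12 higher and 6 lower.

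Genes of both arms of lipid synthesis were lower. Of 25 cholesterol synthesis genes 23 were lower in RPF and none higher (median -0.95), and of 19 lipogenesis genes 16 (median -0.74). RPF on Scd1, the stearoyl-CoA desaturase, was 3927, 3836 and 3695 CPM in the B mice and 1277, 919 and 1062 CPM in the BM mice (log2 change -1.78 ± 0.13, adjusted p = 9.4e-06). RPF on Acly, which makes cytosolic acetyl-CoA, was 736, 865 and 1011 CPM in the B mice and 414, 280.3 and 271 CPM in the BM mice (log2 change -1.41 ± 0.17, adjusted p = 0.000176). RPF on Hmgcs1, HMG-CoA synthase of the cholesterol path, was 1078, 1379.7 and 1088 CPM in the B mice and 653, 491 and 458 CPM in the BM mice (log2 change -1.12 ± 0.15, adjusted p = 0.000298). The groups did not overlap in any of the 3 genes, nor in 50.4% of all genes tested in RPF. Fasn, fatty acid synthase, fell in RPF (-0.57 ± 0.14) and was not called in RNA (-0.26 ± 0.13), nor in TE. Bile acid genes had 1 higher and 14 lower of 21, with Cyp8b1, the 12-alpha-hydroxylase, at -2.04 ± 0.27 and Cyp7a1, the rate-limiting enzyme, at -0.86 ± 0.24.

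Detoxification enzymes and secreted proteins were lower as well. Cytochromes P450 of families 1 to 4 had 2 higher and 34 lower of 51 in RPF (median -0.64), conjugation enzymes of the UGT, GST and SULT families 2 higher and 28 lower of 43, and plasma proteins 1 higher and 39 lower of 48 (median -0.57). Igf1, insulin-like growth factor 1, which the liver releases into the blood, had an RPF level of 293, 279 and 262 CPM in the B mice and 134, 116 and 133 CPM in the BM mice (log2 change -1.09 ± 0.09, adjusted p = 1.73e-05). The P450, UGT and Mup families have close copies, between which reads may be split. Hepatocyte transcription factors had 0 higher and 3 lower of 24, beside 23.9% higher and 20.8% lower among all genes in RPF. With library totals they had 7 higher and 1 lower. Cebpa fell (-0.48 ± 0.09), while Hnf4a fell in RNA (log2 change -0.25 ± 0.10, adjusted p = 0.0671; 0.08 with library totals; not called without B mouse 1, B mouse 2, BM mouse 1 or BM mouse 3, at -0.28 to -0.19) but was not called in RPF (-0.12 ± 0.07). Igfbp2, an IGF-binding protein, fell in RNA (-0.85 ± 0.13) and RPF (-0.77 ± 0.10), and so did Cdh1, E-cadherin (-0.46 ± 0.10 and -0.54 ± 0.10). Mtor and Yap1 were called in neither readout.

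Targets of p53 and apoptosis genes had 15 higher and 5 lower of 38 in RPF. RPF on Eda2r, a TNF-receptor family member, was 0.531, 1.35 and 1.55 CPM in the B mice and 13.5, 12.8 and 11.7 CPM in the BM mice (log2 change 3.48 ± 0.24, adjusted p = 8.67e-06). Phlda3 (3.33 ± 0.34), Tnfrsf10b, the TRAIL receptor (3.08 ± 0.25), and Cdkn1a, the CDK inhibitor p21 (0.80 ± 0.29; not called without B mouse 2 or BM mouse 3, at 0.80 to 0.82), rose as well. Interferon-stimulated genes had 0 higher and 24 lower of 29, with Oasl1 at -1.76 ± 0.24 and Isg15 at -1.43 ± 0.22, beside the lower Kupffer cell markers given above, whose part in this was not tested. Circadian clock genes had 0 higher and 9 lower of 17. Among all genes tested in RPF 23.9% were higher and 20.8% lower. Genes of the integrated stress and unfolded protein responses had 5 higher and 7 lower of 36, and genes of the IGF and mTOR list 8 higher and 11 lower of 37. Proteasome subunits had 2 higher and 10 lower of 38, fatty acid oxidation 4 higher and 7 lower of 25 and nuclear genes for oxidative phosphorylation 3 higher and 28 lower of 80. The medians of these last 5 lists in RPF were between -0.12 and -0.04 and became positive with library totals, under which oxidative phosphorylation had 40 higher and 0 lower. Among progenitor and oncofetal genes, 4 of 13 tested rose and 4 fell in RPF, beside 23.9% higher and 20.8% lower of all genes, with a median of -0.07 that was 0.23 with library totals. Golm1 rose by 2.28 ± 0.24, and Afp, alpha-fetoprotein, by 1.14 ± 0.20. In the MYC network 5 of 13 tested rose and 1 fell in RPF, among them Max (0.71 ± 0.21) and Mxd3 (0.442, 0.270 and 0.326 CPM in B and 4.44, 2.37 and 3.47 in BM).

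**Figure D4:**
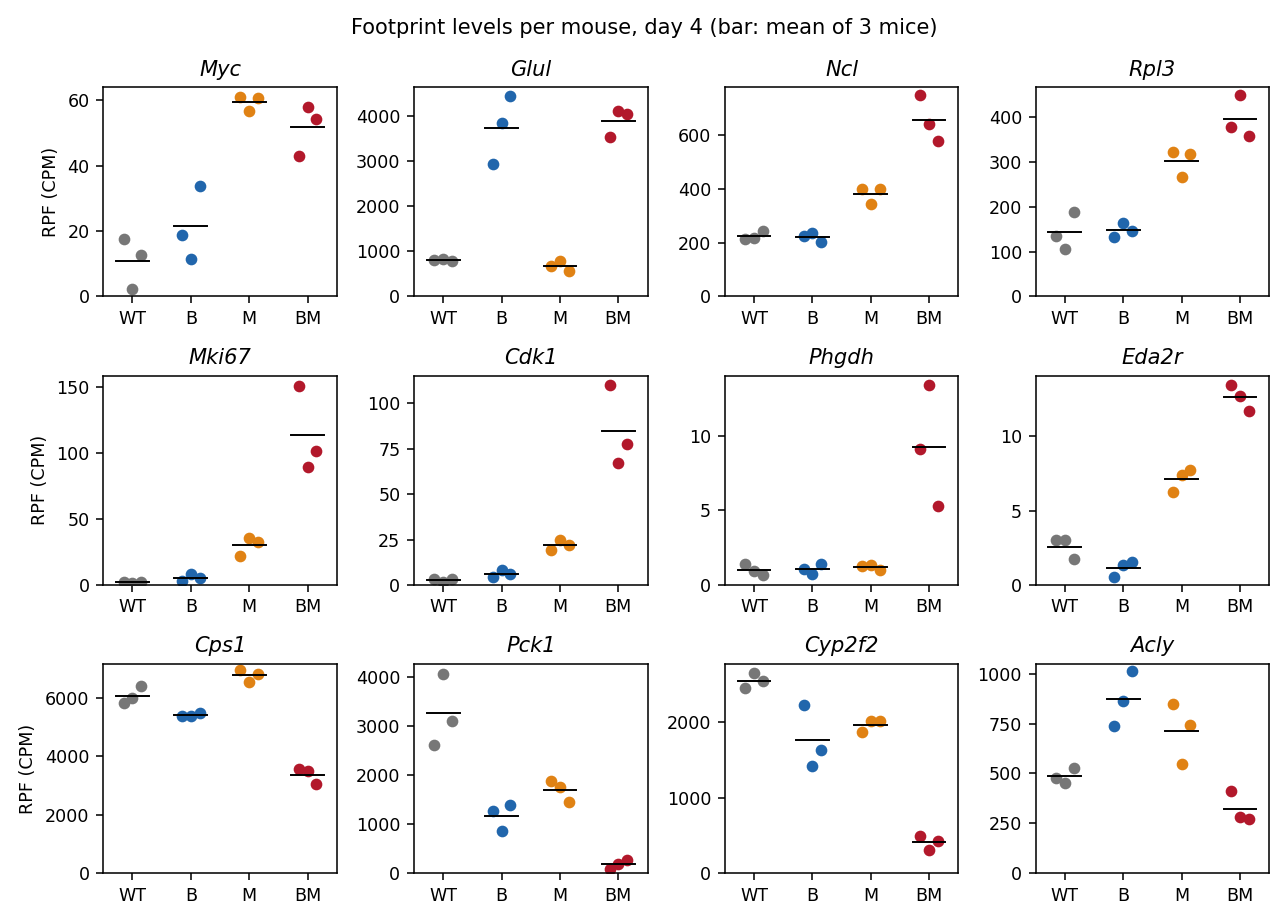
RPF level in CPM of 12 genes in each of the 3 WT, B, M and BM mice of day 4, with the mean as a bar and every axis from 0. Ncl, Mki67, Cdk1 and Eda2r are highest in BM, and Cps1, Pck1, Cyp2f2 and Acly lowest, with no mouse of another genotype in between.

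Whether MYC acted differently when beta-catenin was already mutant was tested as the difference between BM against B and M against WT, which share no mouse. The difference was called for 1455 of 11523 genes in RNA (12.6%), 641 above (5.56%) and 814 below (7.06%). The 641 became 356 without BM mouse 1, 385 without WT mouse 3 and 396 without M mouse 1. It was called for 2308 of 11577 genes in RPF (19.9%), 948 above (8.19%) and 1360 below (11.7%). In TE it was called for 1 of 10808 genes by edgeR (0.00925%), with 311 at an unadjusted p under 0.05, 1 by DESeq2 and 11 with the block on mouse. The gene is Gapdhrt, named after its value was seen, a near copy of Gapdh, and reads may be split between them. Of the genes that rose in RPF in BM against B and were tested in both, 1217 also rose in M against WT (where 18.4% of all genes rose), which is 46.4% of the first set and 59.8% of the second. Of those that fell, 798 did (34.1% and 49.1%, with 14.7% lower among all genes in M against WT). In RNA 787 genes rose in both comparisons (38.8% and 50.8%) and 494 fell in both (27.8% and 46.9%), with 14.0% higher and 9.55% lower among all genes in M against WT. Of the genes with higher TE 50 were shared (47.6% and 54.9%, with 0.884% higher in M against WT), and of those with lower TE none.

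Ribosome biogenesis genes had a larger footprint effect of MYC on the mutant background. Of 115 genes 48 were called above and 1 below, with medians of 0.59 in BM against B and 0.20 in M against WT. The RPF change of Ncl was 1.61 ± 0.11 with and 0.76 ± 0.09 without mutant beta-catenin (difference 0.81 ± 0.15, adjusted p = 0.00297). For cytosolic ribosomal proteins 9 of 79 were called above and 0 below in RPF, beside 8.19% above among all genes, with medians of 0.85 and 0.61. In RNA 0 of 84 were called above and 1 below, with medians of 0.65 in BM against B and 0.75 in M against WT. Mitosis genes rose on both backgrounds, with medians of 4.12 and 3.11 in RPF and 18 of 80 called above and 1 below. In RNA the medians were 2.45 and 0.95, and 46 of 80 were called above and 0 below, beside 5.56% above among all genes. For Phgdh the RPF change was 3.14 ± 0.39 with and 0.25 ± 0.35 without (difference 2.86 ± 0.63, adjusted p = 0.00963). Ccnd1, which was not called in BM against B, fell in M against WT (-1.44 ± 0.17), and the difference was called (1.82 ± 0.29, adjusted p = 0.00134).

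Periportal genes had a lower footprint effect of MYC on the mutant background. In zone 1 genes 18 of 25 were called below and none above, with medians of -0.94 with and -0.04 without mutant beta-catenin. RPF on Hal changed by -2.66 ± 0.21 with and 0.14 ± 0.11 without (difference -2.84 ± 0.26, adjusted p = 4.6e-05). Several genes moved in opposite directions. In RPF, 171 genes that fell in BM against B rose in M against WT with the difference called, and 78 did the reverse, also with the difference called. Aqp8 changed by -2.99 ± 0.12 with and 0.62 ± 0.16 without mutant beta-catenin. Etnppl changed by -2.37 ± 0.28 and 0.66 ± 0.12, Gls2 by -1.30 ± 0.19 and 0.62 ± 0.11, Gnmt by -1.09 ± 0.12 and 0.34 ± 0.08, and Acly by -1.41 ± 0.17 and 0.55 ± 0.14. In lipogenesis 13 of 19 genes were called below, in P450 genes 30 of 54 and in oxidative phosphorylation 26 of 80. Fabp5 fell on both backgrounds (-2.60 ± 0.17 and -2.44 ± 0.19), with a difference of -0.20 ± 0.28 that was not called.

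Acute phase proteins had 13 of 18 genes called above and 1 below. In M against WT 17 of 18 were lower and 0 higher in RPF (median -2.12), and in BM against B 8 were lower and 4 higher (median -0.31). Their RPF summed to 10550 to 18900 CPM in WT, 5532 to 6503 in M, 4034 to 5009 in B and 3497 to 4332 in BM, so the list was highest and most widely spread in WT. Saa1, serum amyloid A, had an RPF level of 1343, 163 and 1389.8 CPM in WT, 26.0, 83.7 and 16.2 in M, 11.1, 11.7 and 18.3 in B and 8.53, 9.23 and 9.19 in BM. The 3 WT mice were above all others and spread widely, and mouse 2 was the lowest of them.

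**Figure D5:**
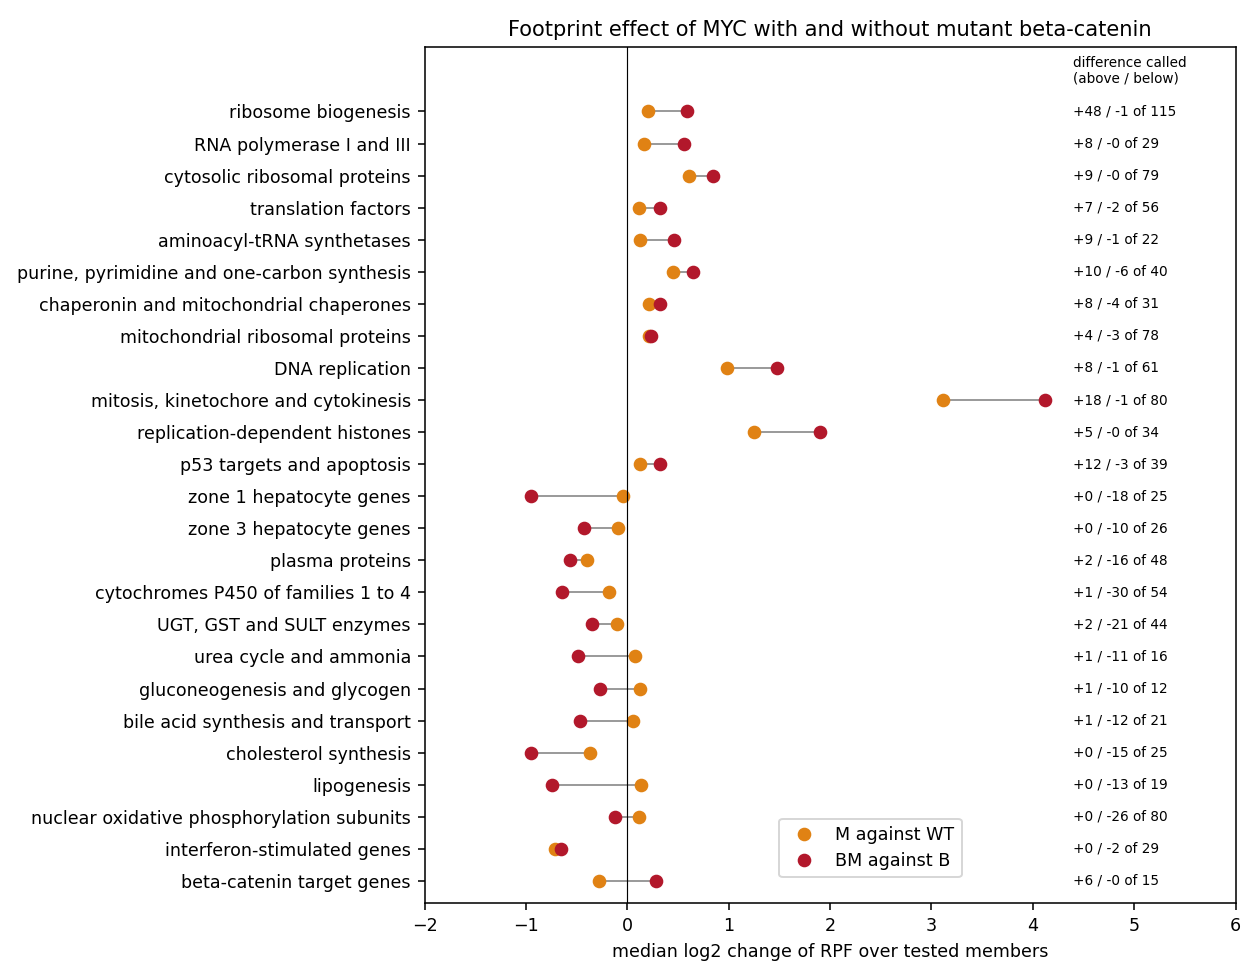
Median log2 change of RPF over the tested members of each list, in M against WT (orange) and in BM against B (red). Numbers at the right give how many genes had the difference of the effects called above and below 0, of those tested. Zone 1 genes have a median of -0.04 without mutant beta-catenin and -0.94 with it, and ribosome biogenesis genes 0.20 and 0.59.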

How the data were processed

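Footprints (RPF) and cytoplasmic RNA were measured from the same lysate of each mouse. The RPF values are deposited counts of deduplicated footprints per coding sequence, 1 transcript per gene, which the authors made with cutadapt 1.18, UMI-tools and BBmap against a filtered GENCODE vM27 (GRCm39) transcriptome, leaving out codons at both ends of the coding sequence. A transcript with no line in a library was taken as 0. The RNA values are deposited expected counts per isoform, which the authors estimated with Bowtie2 2.3.5.1 and RSEM 1.3.3 after removing duplicate molecules. They were summed per gene and rounded here. The kit's strand handling is not given in the sources used here, so overlapping genes on opposite strands cannot always be told apart.

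RNA and RPF were fitted separately over the 6 mice, and TE as the interaction of genotype and library type over 12 libraries, with edgeR 4.0.16 (R 4.3.3; TMM within library type, filterByExpr with a minimum count of 10 and a minimum total of 15, two-sided quasi-likelihood test, Benjamini-Hochberg over all genes tested, adjusted p under 0.1). The difference in MYC effect was fitted over the 12 mice of day 4. The fits were also run on simulated counts, with libraries drawn independently at a fixed dispersion. That setting leaves out the pairing within a mouse, so it cannot check the TE calls, and its outcome is not reported here. RPF and RNA libraries of the same mouse deviated together (correlations of 0.30 to 0.55), and the cause was not tested. The alternatives were DESeq2 1.42.0, other size factors, filters and thresholds, blocks on replicate number or mouse, all 4 genotypes in the fit, genes with an RPF line in every library, and leaving out each mouse. Libraries of day 10 were not used.

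The genes and lists were chosen with earlier results of these data known. Named were the genes of the study's question, the 10 called genes with the largest change per readout and direction (mice not overlapping, a mean of at least 50 counts in the higher group, no Gm or Rik symbols), the most abundant and most changed members of each list, and genes called in opposite directions in RNA and RPF. Genes with 3 counts or fewer in every B mouse have no fitted fold. Mice are separate animals, so p-values of RNA and RPF measure the spread between 3 animals a group. The main TE fit took the RPF and RNA library of a mouse as separate units, so its p-values do not use their pairing. RefSeq promoter windows were matched by symbol.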

Additional observations from a re-analysis of the deposited data

Results flagged for a closer look

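The effect of MYC on the mutant background (BM against B) was set against its effect without the mutant allele (M against WT), and a result stands here because the difference itself was called (edgeR, adjusted p under 0.1, 3 mice in each of 4 genotypes). It was called for 1455 genes in RNA, 2308 in RPF and 1 in TE. For genes named in the text the difference in RPF is given below on the log2 scale, where a positive value means a higher effect with mutant beta-catenin. No explanation was tested.

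In genes of ribosome production and translation the difference was above 0 for Ncl by 0.81, Npm1 by 0.81, Nop56 by 0.87, Dkc1 by 0.52, Nhp2 by 0.63, Wdr43 by 0.81, Utp4 by 0.38, Nol11 by 0.37, Polr1b by 0.40, Rps20 by 0.70, Eef1g by 0.42, Pabpc4 by 1.28, Vars1 by 0.58 and Aars1 by 0.32. It was below 0 for Eif4a2 by -0.61, Pdcd4 by -0.67 and Tars1 by -0.40. In nucleotide, one-carbon and polyamine genes it was above 0 for Psat1 by 2.12, Phgdh by 2.86, Mthfd1l by 2.39, Cad by 1.25, Ctps1 by 1.12 and Srm by 1.03, and below 0 for Mat1a by -0.41, Gnmt by -1.47 and Paox by -0.97. Cell cycle and replication genes with a called difference were Rrm1 by 0.74, Ccnd1 by 1.82, Stmn1 by 1.28 and H3c8 by 1.75.

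Among genes with lower TE in BM, the RPF difference was called for G6pdx by -0.83, Slc23a1 by -1.33, Serpinb8 by 1.32 and Zfyve26 by -0.41. Among zone 1 genes and others with a large decrease it was called for Hal by -2.83, Pck1 by -1.74, Cyp2f2 by -1.72, Aqp8 by -3.65, Serpina12 by -2.76, Etnppl by -3.06, BC024139 by -2.20 and Nr4a1 by -3.65. Glucose, nitrogen and glycolysis genes differed, G6pc1 by -1.30, Fbp1 by -1.44, Cps1 by -0.84, Ass1 by -1.22, Gls2 by -1.97 and Gapdh by -0.48, and so did its near copy Gapdhrt by -2.81. Lipid and bile acid genes differed, Scd1 by -1.22, Acly by -1.99, Hmgcs1 by -0.98, Fasn by -1.09, Cyp8b1 by -2.22 and Cyp7a1 by -1.25.

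Beta-catenin target genes differed upward, Rhbg by 0.87, Slc1a2 by 0.77, Axin2 by 0.88 and Lgr5 by 0.60, of which Axin2 and Lgr5 were not called in RPF in BM against B. Secreted proteins and hepatocyte regulators differed, Igf1 by -0.94, Igfbp2 by -0.92, Cebpa by -0.67, Inhbc by 0.46, Serpina3c by 0.84, Serpina3f by 0.83 and Saa1 by 3.90. Of 39 p53 target and apoptosis genes 12 were called above and 3 below. The named members were above, Eda2r by 1.99, Phlda3 by 2.36, Tnfrsf10b by 2.04 and Cdkn1a by 1.53. The remaining named genes were Oasl1 by -1.09 and Golm1 by 1.81.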

How the results depend on the processing

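The RNA count of 3889 genes became 6146 with library totals only, and the TE count of 122 became 67 at an adjusted p under 0.05 and 493 with the replicate block on mouse. Under library totals the log2 change turned positive for Inhbc (RPF 0.079), Aars1 (RNA 0.031), Oaz1 (RPF 0.035), H2bc14 (RNA 0.31), Sec24a (RPF 0.30), Hnf4a (RNA 0.081, RPF 0.18) and Yap1 (RPF 0.28). The shift of all genes under that scaling is built into it. Leaving out 1 mouse gave 3000 to 3667 genes in RNA, 4324 to 4530 in RPF and 33 to 117 in TE. For the difference in MYC effect it gave 953 (without BM mouse 1) to 1636 genes in RNA, 1648 to 2327 in RPF and 0 to 1 in TE. The TE difference was called for 0 genes with at least 10 counts in every library and 11 with the block on mouse. The cause was not tested. DESeq2 called 2809 genes in RNA and 4076 in RPF, and the other alternatives kept these counts within 1.5 times. The deviations of same-numbered B and BM mice had correlations of -0.07, 0.04 and 0.11 in RNA and -0.11, -0.08 and 0.13 in RPF. Mice of different numbers were not compared, and whether same-numbered mice shared any handling was not tested. The replicate block on that number gave 4054 calls in RNA and 4892 in RPF. Across the named genes, 1785 of 1926 RNA, 2010 of 2097 RPF and 1694 of 1883 TE values under the alternatives kept direction and side of the threshold. Footprints of genes near 3 counts per library limit the TE of cell cycle and histone genes in B.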
